A study of Mus musculus with 36 samples.

Results

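The hippocampus of *Pogz* cKO-/- mice was compared with that of *Pogz* cKO+/- mice, 5 libraries against 6. *Pogz* encodes a zinc-finger protein with a domain derived from a transposase that binds heterochromatin protein 1 and represses transcription. In these mice a *Cre* recombinase under the *Nestin* promoter, active in neural progenitors and the neurons and glia they give rise to, deletes exons of floxed *Pogz* alleles. Microglia and most vascular cells do not descend from these progenitors. The cKO+/- mice were NesCre/+; Pogzfl/+ and the cKO-/- mice NesCre/+; Pogzfl/fl, all adult C57Bl/6 animals, so both groups carried *Cre* and the comparison is the step from 1 intact allele to 0. Control mice, Pogzfl/fl without *Cre*, are given as a further reference. The 11 libraries are part of 36 from the hippocampus and cerebellum of 18 mice, of which 18 are hippocampal. They are the cKO-/- libraries Sample_936, Sample_1219, Sample_1371 (males), Sample_1379 and Sample_1385 (females) and the cKO+/- libraries Sample_933, Sample_1189, Sample_1433 (males), Sample_938, Sample_1120 and Sample_1176 (females).

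Poly(A) RNA was sequenced and counted per gene by the authors. The shallowest of the 11 libraries held 17609321 counts and the deepest 41900988; the median cKO-/- library held 26090969 and the median cKO+/- library 34833512. A further cKO-/- library, Sample_1160, stood apart: its deviations from the mean of all hippocampal libraries correlated with gene length at r = -0.60 across genes, against -0.0094 to 0.367 in the other 17 libraries, and it enters below only as a check. Levels are in CPM, a gene's counts scaled to a common total of counts on genes with TMM factors. The markers of the tissue were present, with *Prox1*, of dentate granule cells, at 38.6 to 72.3 CPM and *Neurod6*, of pyramidal cells, at 141 to 247 CPM in the 11 libraries, and *Gabra6*, of cerebellar granule cells, at no more than 0.21 CPM. Among the controls, Sample_1129 held 49.5 CPM of *Gabra6* and the others at most 1.09. RNA of the choroid plexus, which lies beside the hippocampus, varied between dissections. *Ttr*, its most abundant transcript, stood at 4543 CPM in cKO-/- Sample_1385, 1018 in cKO-/- Sample_1219 and 591 in cKO+/- Sample_1189, and between 0.166 and 119 in the other 8. In bulk tissue a smaller share of a cell type and less RNA per cell cannot be told apart.

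*Pogz* itself (chr3:94837567-94883567 in GRCm38, plus strand) was lower in cKO-/-. Its level was 61.7, 67.7, 60.7, 59.7 and 58.7 CPM in cKO-/- Sample_936, Sample_1219, Sample_1371, Sample_1379 and Sample_1385, the order kept for cKO-/- values below. In cKO+/- it ran from 74.0 through a median of 75.6 to 80.2 CPM, and in controls from 89.0 to 92.9. All 5 cKO-/- libraries lay below all 6 cKO+/- libraries, and those below all 6 controls. The means were 61.7 ± 3.55 CPM (SD, n = 5) in cKO-/- and 76.4 ± 2.26 CPM (SD, n = 6) in cKO+/-, a log2 step of -0.31 (SE 0.051, adjusted p = 0.017). The adjusted p is that of edgeR's quasi-likelihood F-test over all tested genes with Benjamini-Hochberg adjustment, here and below. A 2-sided exact permutation test of *Pogz* alone gave p = 0.00216, the smallest that 462 arrangements allow. These counts cover the whole gene and not the deleted exons alone. With Sample_1160, at 53.6 CPM, the step was -0.34 and its adjusted p 0.13.

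Of 24421 genes, 14228 were above 1 CPM in at least 5 of the 11 libraries and were tested. At an adjusted p under 0.05, 77 genes differed between cKO-/- and cKO+/- (0.541% of those tested): 47 were higher in cKO-/- (0.33%) and 30 lower (0.211%). The step exceeded 1.5-fold for 51 of the 77, 33 of them higher, and 2-fold for 26, 19 of them higher. In 73 of the 77 genes, all 5 cKO-/- libraries lay on one side of all 6 cKO+/- libraries, against 281 of all tested genes (1.97%), 135 with cKO-/- above (0.949%) and 146 with cKO-/- below (1.03%). At an unadjusted p under 0.05, 1146 genes were higher (8.05%) and 1050 lower (7.38%), the background for the unadjusted counts of the lists below. The median log2 step over all tested genes was 0.0058. Of the 47 higher genes, 7 were above 1 CPM in no cKO+/- library; they passed the filter through the cKO-/- libraries alone and so had to differ. These 7 were *Gm364*, *Akr1c13*, *9430018G01Rik*, *Platr14*, *BC055402*, *Got1l1* and *Tgm6*, the last 3 named after their values were seen. All 7 are among the 19 higher genes past 2-fold, so the share of higher genes there is partly set by the filter.

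The count depended on the libraries. Adding Sample_1160 left 16 called genes, all among the 77. That library lay beyond all cKO+/- libraries on the called side for 34 of the 47 higher and 15 of the 30 lower genes, and on the opposite side for 8 and 8. The same share over all tested genes is not given. With its bias by gene length, these counts are therefore no rate of agreement. Leaving out the 3 libraries rich in *Ttr*, which kept 3 cKO-/- and 5 cKO+/- libraries, left 9 called genes, 8 of them higher genes described next: *Gm364*, *Dach2*, *Akr1c13*, *Ttn*, *4930447C04Rik*, *9430018G01Rik*, *Dmp1* and *Platr14*. This fit kept the genes that passed the filter in the 11 libraries. *Gm364*, *Akr1c13*, *9430018G01Rik* and *Platr14* passed it through cKO-/- alone and so had to differ here too.

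**Figure D1:**
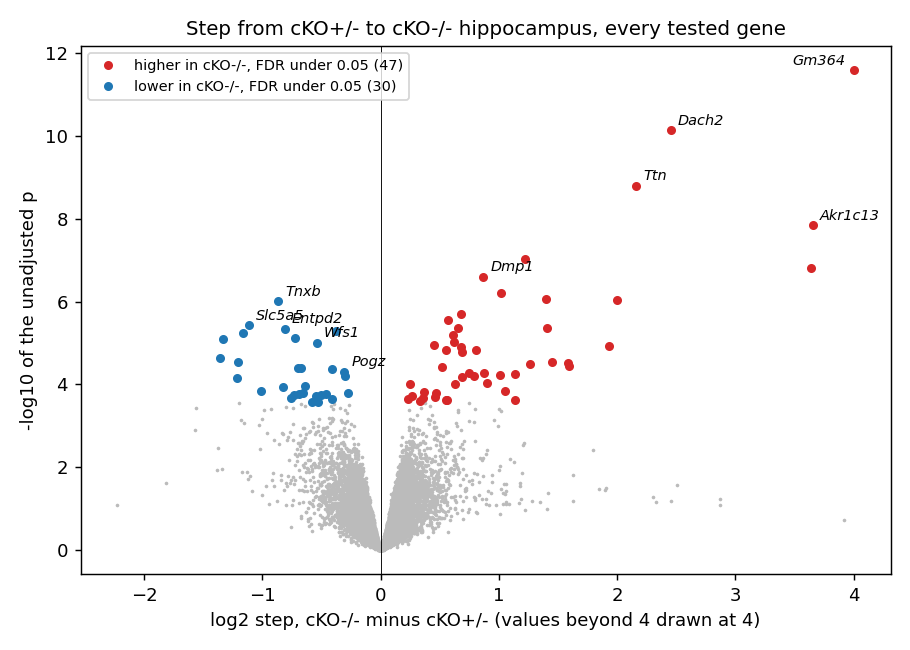
Log2 step from cKO+/- to cKO-/- hippocampus (horizontal) against -log10 of the unadjusted p (vertical) for the 14228 tested genes. Red points are the 47 genes higher and blue points the 30 lower in cKO-/- at an adjusted p under 0.05; *Gm364*, which had at most 1 count in every cKO+/- library, is drawn at the right edge.

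Among the higher genes of smallest p, taken only from those whose groups did not overlap, levels in cKO+/- ran from the floor of detection to above 10 CPM. The 300 bases around the RefSeq start of 3 of these genes are shown (GRCm38.p6, 250 before the start and 50 after, on the gene's strand) because the density of CG dinucleotides, the target of DNA methylation, differs widely between them; CG is in capitals. The windows lie at chrX:57408899-57409198 on the plus strand (*Gm364*), chr13:4190937-4191236 on the plus strand (*Akr1c13*) and chr12:72917716-72918015 on the minus strand (*4930447C04Rik*).
Gm364: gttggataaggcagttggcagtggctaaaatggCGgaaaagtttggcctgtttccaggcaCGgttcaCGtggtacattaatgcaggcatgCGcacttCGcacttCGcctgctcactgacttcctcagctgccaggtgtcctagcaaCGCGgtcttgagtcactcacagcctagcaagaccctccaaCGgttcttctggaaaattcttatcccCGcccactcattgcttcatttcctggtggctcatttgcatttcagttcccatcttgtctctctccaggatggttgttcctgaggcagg
Akr1c13: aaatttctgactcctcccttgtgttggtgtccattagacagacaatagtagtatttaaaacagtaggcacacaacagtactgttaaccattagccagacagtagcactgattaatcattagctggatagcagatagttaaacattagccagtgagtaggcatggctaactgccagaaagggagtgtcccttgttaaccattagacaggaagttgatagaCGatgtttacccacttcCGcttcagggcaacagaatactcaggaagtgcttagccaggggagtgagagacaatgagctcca
4930447C04Rik: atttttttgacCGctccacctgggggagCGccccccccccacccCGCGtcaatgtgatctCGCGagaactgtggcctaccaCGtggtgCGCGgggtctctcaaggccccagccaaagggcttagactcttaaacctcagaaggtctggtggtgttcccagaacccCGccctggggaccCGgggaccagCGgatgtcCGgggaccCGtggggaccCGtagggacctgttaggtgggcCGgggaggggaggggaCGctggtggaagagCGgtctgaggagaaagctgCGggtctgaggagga
They hold 10, 2 and 19 CG. Over all 32851 RefSeq windows, of 27025 genes whether tested or not, the median was 7 CG, and 43.6% held at most 5. Among the genes called higher, 33 of 47 had a window, and 44% of their 50 windows held at most 5 CG. Among those called lower, 23 of 30 had a window, and 18.5% of their 27 windows did. Called genes had to pass the expression filter and the full set did not, so these shares are not of like sets. The counts describe letters only, and methylation was not measured.

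*Gm364*, a predicted gene on the X chromosome (chrX:57409149-57488771), was at or near 0 outside cKO-/-. It stood at 5.04, 6.199, 7.46, 6.49 and 6.83 CPM in cKO-/-, from 113 to 214 counts. No cKO+/- library and no control held more than 1 count. Against a floor of 3 counts per library it was at least 50.8-fold higher in cKO-/-. Sample_1160 stood with the cKO-/- libraries at 6.50 CPM.

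*Dach2* (chrX:113297510-113836390), a transcriptional cofactor of the dachshund family, was 5.48-fold higher. Its level was 16.9, 18.1, 25.8, 22.9 and 22.4 CPM in cKO-/-. In cKO+/- it ran from 3.34 through a median of 3.84 to 4.53 CPM, and in controls from 0.593 to 1.40. The 3 genotypes did not overlap. The log2 step from cKO+/- to cKO-/- was 2.45 (SE 0.124, adjusted p = 5.26e-07). In a fit of 17 libraries with the controls, the step from control to cKO+/- was 2.20 (adjusted p = 5.13e-06) and the next 2.46.

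*Akr1c13* (chr13:4191187-4205603), an aldo-keto reductase, stood at 2.13, 2.06, 2.02, 1.67 and 3.11 CPM in cKO-/- and from 0.0789 through a median of 0.186 to 0.293 CPM in cKO+/-. The log2 step was 3.65 (SE 0.286, adjusted p = 5.05e-05). Between 3 and 11 counts per cKO+/- library lie behind it, and 28.95% of the gene's 43-base stretches also occur in other genes, most of them in *Akr1c12*, so its count is uncertain. *9430018G01Rik*, an unnamed transcript, stood at 1.69, 1.42, 2.26, 2.18 and 1.5005 CPM in cKO-/- and from 0 to 0.252 CPM in cKO+/-, a log2 step of 3.64 (SE 0.351, adjusted p = 0.000375). Sample_1160, at 0.437 CPM, was above every cKO+/- library but far below the other cKO-/- libraries. *Platr14*, a long non-coding RNA, went from 0.460 ± 0.157 CPM (SD, n = 6) to 1.80 ± 0.348 CPM (SD, n = 5). These 3 genes passed the filter through the cKO-/- libraries alone, so they had to differ and their adjusted p is no support.

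*Ttn* (chr2:76703984-76982547, minus strand) encodes titin, the giant spring protein of the sarcomere. It stood at 16.2, 14.8, 12.7, 13.2 and 13.3 CPM in cKO-/- and from 2.44 through a median of 3.05 to 4.12 CPM in cKO+/-. Controls ran from 2.66 to 8.63 and overlapped cKO+/-. The log2 step was 2.16 (SE 0.141, adjusted p = 7.61e-06). Sample_1160 stood at 4.96 CPM, among the controls.

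*4930447C04Rik*, also known as Six6os1 and a part of the synaptonemal complex that pairs meiotic chromosomes, stood at 28.9, 25.7, 37.5, 27.8 and 27.9 CPM in cKO-/- and from 10.3 to 14.7 CPM in cKO+/-. Its log2 step was 1.22 (SE 0.112, adjusted p = 0.00026), after a step of 0.72 from control to cKO+/- (adjusted p = 0.036). *Dmp1*, a phosphoprotein of mineralised matrix, stood at 14.7, 13.9, 14.7, 15.04 and 16.8 CPM in cKO-/-, above the 6.87 to 9.63 CPM of cKO+/- (log2 step 0.87, SE 0.087, adjusted p = 0.000514). *Gm4371* went from 1.75 ± 0.368 to 4.57 ± 0.703 CPM.

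*Cnksr3*, a scaffold of kinase signalling, stood at 9.55, 9.65, 8.64, 9.53 and 13.5 CPM in cKO-/- against 4.51 to 5.84 CPM in cKO+/- (log2 step 1.02, SE 0.111, adjusted p = 0.00107). The highest cKO-/- library, Sample_1385, and the highest control, Sample_1129 at 11.5 CPM, also hold the most *Ttr*. Control Sample_1170, with 2170 CPM of *Ttr*, held no more than 6.17 CPM of *Cnksr3*. Sample_1129 also held 49.5 CPM of *Gabra6*, and *Cnksr3* averaged 73.8 CPM in cKO-/- and 75.6 CPM in cKO+/- cerebellum. The part of either tissue in the *Cnksr3* values was not tested. *Sema3c*, a secreted semaphorin that guides axons, stood at 33.3, 36.4, 42.6, 43.8 and 44.8 CPM in cKO-/- against 22.3 to 26.6 CPM in cKO+/- (log2 step 0.68, SE 0.083, adjusted p = 0.00231), while controls overlapped cKO+/- at 21.4 to 34.5. *Pstpip2*, a membrane-bending adaptor of myeloid cells, went from 12.8 ± 1.04 to 18.8 ± 1.06 CPM (adjusted p = 0.00303). In Sample_1160 these 3 genes stood at 5.40, 22.9 and 2.77 CPM, outside the range of the other cKO-/- libraries.

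**Figure D2:**
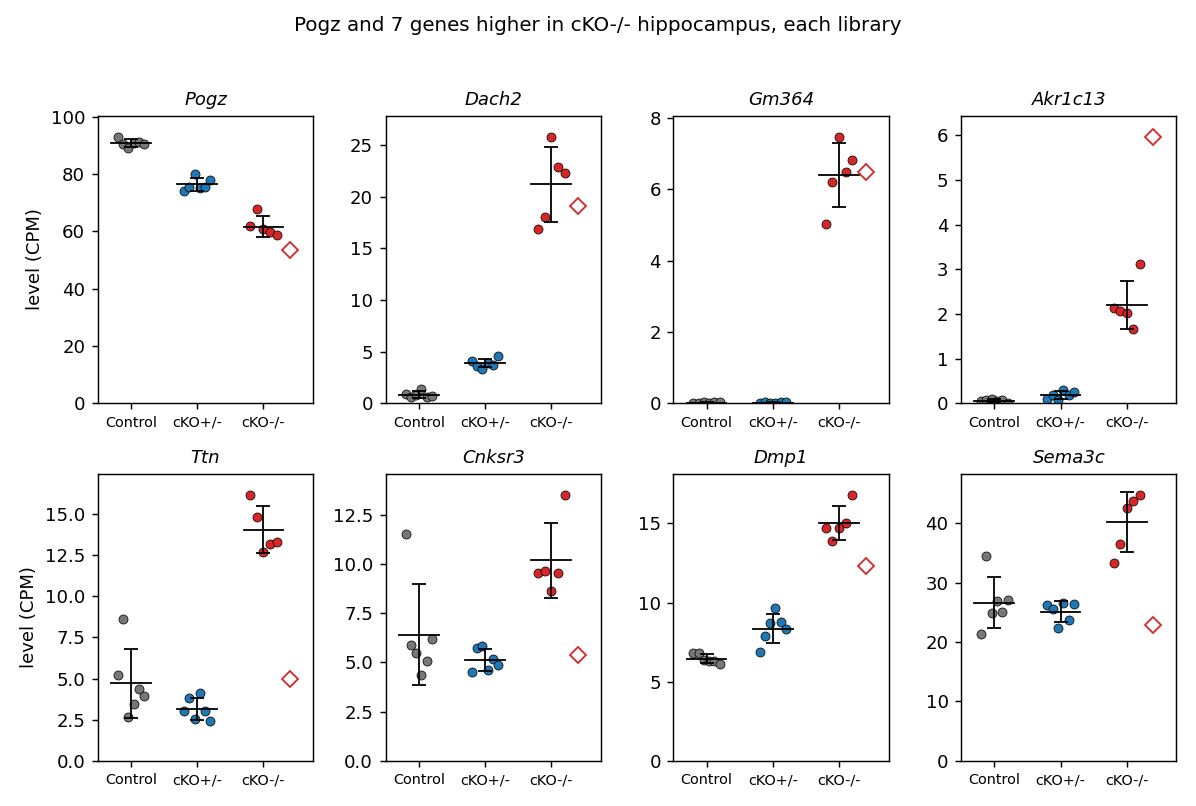
Level in CPM of *Pogz* and 7 genes in each hippocampal library, with the 6 controls in grey, the 6 cKO+/- libraries in blue and the 5 cKO-/- libraries in red; lines and bars are the mean and SD, and the open diamond is Sample_1160. *Gm364* lies at the floor in controls and cKO+/- and at 5.04 to 7.46 CPM in cKO-/-, while *Dach2* rises at each step.

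Among the 30 lower genes *Tnxb*, the matrix protein tenascin X, had the smallest p. It stood at 13.7, 12.6, 10.05, 9.70 and 10.8 CPM in cKO-/-. In cKO+/- it ran from 18.8 through a median of 21.1 to 22.1 CPM, and in controls from 20.8 to 26.8. The log2 step was -0.87 (SE 0.098, adjusted p = 0.00126). *Thbs3*, a thrombospondin, fell from 32.8 ± 5.11 to 20.5 ± 2.07 CPM (adjusted p = 0.0147).

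*Slc5a5*, the sodium and iodide symporter, stood at 8.72, 9.56, 7.75, 8.10 and 6.38 CPM in cKO-/- against 12.7 to 22.8 CPM in cKO+/- (log2 step -1.11, SE 0.143, adjusted p = 0.00374). *Entpd2*, an enzyme that breaks down extracellular ATP, stood at 6.78, 6.199, 6.66, 4.88 and 5.59 CPM against 8.25 to 11.6 CPM (log2 step -0.81, SE 0.106, adjusted p = 0.00374). *Kcns1*, a modulatory potassium channel subunit, went from 12.2 ± 1.19 to 7.51 ± 1.2004 CPM (adjusted p = 0.0147). These 3 genes, like the other lower genes named by rank, were taken only from genes whose cKO-/- and cKO+/- libraries did not overlap. Sample_1160 held 16.98 CPM of *Kcns1*, above every other library.

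*Gaa*, the lysosomal enzyme that degrades glycogen, stood at 325, 376, 344, 294 and 298 CPM in cKO-/- against 383 to 447 CPM in cKO+/-, a small but narrow step of -0.38 (SE 0.051, adjusted p = 0.00413). Sample_1160, at 458 CPM, was above all of these. *Reep6*, a protein that shapes the endoplasmic reticulum, went from 6.62 ± 0.5848 to 4.01 ± 0.317 CPM (adjusted p = 0.00506), with all controls higher still at 8.11 to 8.65 CPM. *Alox12b*, a lipoxygenase best known from skin, went from 8.98 ± 1.95 to 3.63 ± 1.26 CPM (adjusted p = 0.0108). *Myo1h*, an unconventional myosin, went from 2.14 ± 0.212 to 0.964 ± 0.171 CPM (adjusted p = 0.00431); it overlaps *Kctd10* on the other strand. *Ntn5*, a netrin (log2 step -1.34, adjusted p = 0.00518), and *Sec1*, a fucosyltransferase gene (log2 step -1.21, adjusted p = 0.0123), overlap each other on opposite strands, so their reads may be shared.

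**Figure D3:**
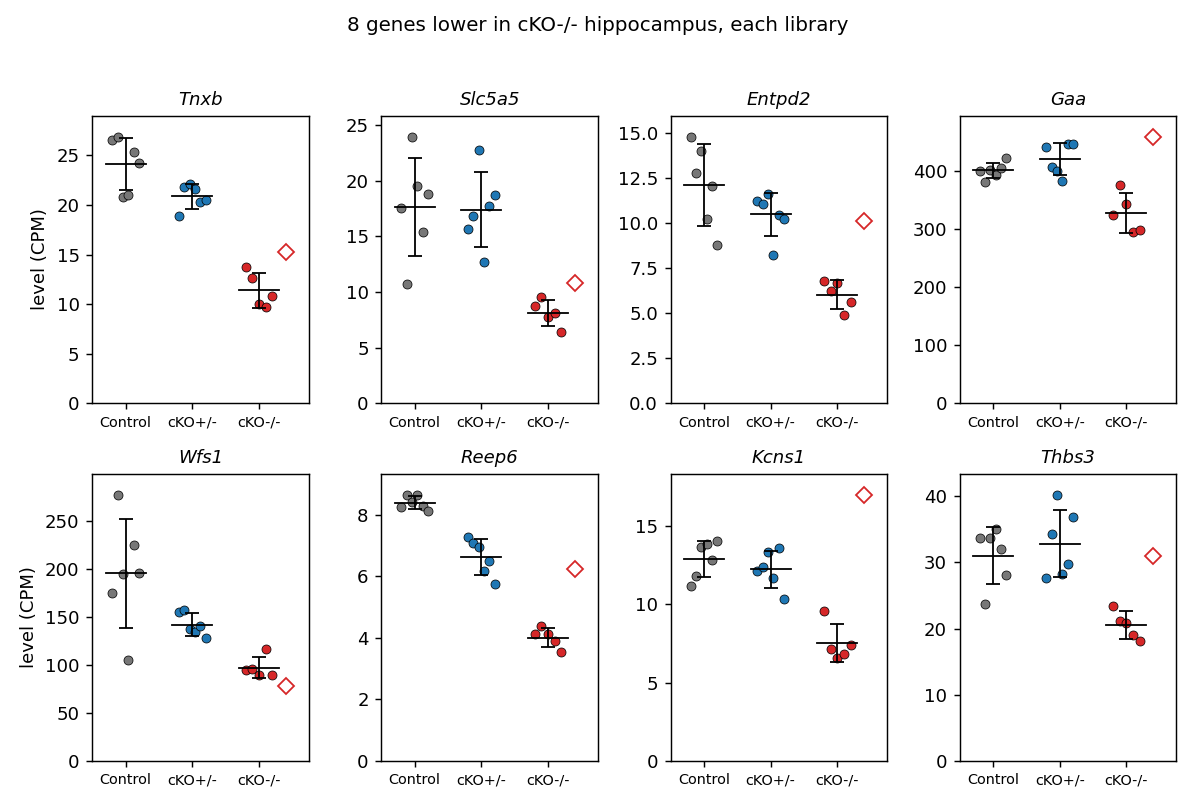
Level in CPM of 8 genes lower in cKO-/- in each hippocampal library, with the 6 controls in grey, the 6 cKO+/- libraries in blue and the 5 cKO-/- libraries in red; lines and bars are the mean and SD, and the open diamond is Sample_1160. Each gene was named only if its 5 cKO-/- libraries lay on one side of the 6 cKO+/- libraries, here below. Controls overlap cKO+/- in all but *Reep6*.

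The other 44 called genes had no place in the ranks above or in a list: 29 were higher and 15 lower in cKO-/-. The higher ones had log2 steps of 0.23 to 1.93, with a median of 0.69, and in 26 of the 29 the groups did not overlap. The lower ones had steps of -1.22 to -0.27, with a median of -0.64, and in all 15 the groups did not overlap. Over all tested genes, cKO-/- lay above in 0.949% and below in 1.03%. The 44 were called on these same libraries, so the lack of overlap largely follows from the call. Sample_1160 lay beyond all cKO+/- libraries on the called side in 23 of the 29 and 7 of the 15, again without a share over all tested genes. The examples that follow were chosen after their values were seen. *Scg2*, the neuropeptide precursor secretogranin II, had the highest level of the 44, with cKO-/- at 296 ± 28.7 CPM (SD, n = 5) and cKO+/- at 218 ± 11.95 CPM (SD, n = 6) (log2 step 0.45, adjusted p = 0.0063). *Aldh1a1*, an enzyme of retinoic acid synthesis, stood at 93.5 ± 17.1 and 56.7 ± 9.85 CPM (log2 step 0.74, adjusted p = 0.0179), and 9.299% of its 43-base stretches occur in other genes, most of them in *Aldh1a7*. *Scn7a*, an atypical sodium channel, stood at 13.5 ± 2.89 and 6.52 ± 2.02 CPM, and its groups overlapped (log2 step 1.06, adjusted p = 0.0366). *Ptprq*, a phosphatase known from hair cells of the inner ear, stood at 3.03 ± 0.477 and 1.10 ± 0.36 CPM (log2 step 1.45, adjusted p = 0.0123).

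Among the lower ones, *Ryr1*, the calcium release channel of skeletal muscle, stood at 30.6 ± 4.81 CPM in cKO-/- and 44.4 ± 4.83 in cKO+/- (log2 step -0.53, adjusted p = 0.0493). *Kcna6*, a voltage-gated potassium channel, stood at 77.4 ± 4.95 and 93.2 ± 4.82 CPM (log2 step -0.27, adjusted p = 0.039), and *Crocc*, the ciliary rootlet protein, at 77.3 ± 14.2 and 130 ± 24.3 CPM (log2 step -0.74, adjusted p = 0.0403).

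The called genes were also read by the roles of their members, over 24 lists of pathways and cell types. A share of 0.541% called is the background for each. In silencing by POGZ, its heterochromatin partners and the enzymes of H3K9 methylation, 2 of 29 tested members were called: *Pogz* and *Atf7ip*, the partner of the H3K9 methyltransferase SETDB1. *Atf7ip* was higher, at 76.1, 85.8, 83.9, 73.6 and 80.9 CPM in cKO-/- against 49.7 to 67.8 CPM in cKO+/- (log2 step 0.37, SE 0.069, adjusted p = 0.0371), and Sample_1160 lay below all of these at 31.4 CPM. The median of the list was 0.0084, next to 0.0058 over all genes.

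Of the germline, piRNA and meiosis genes, 18 of 36 passed the filter and 2 were called, both higher. They were *Gm364*, which passed the filter through the cKO-/- libraries alone and so had to differ, and *Rnf17*, a protein of the piRNA pathway in testis. *Rnf17* stood at 2.52, 3.53, 5.61, 3.16 and 5.74 CPM in cKO-/- against 0.842 to 1.89 CPM in cKO+/- (log2 step 1.59, SE 0.256, adjusted p = 0.0142). Over the 18 the median was 0.12 and 12 were above 0. Of 38 imprinted genes 1 was called, *Snrpn*, a paternally expressed spliceosome gene. *Snrpn* stood at 9.25, 11.8, 10.9, 9.76 and 9.83 CPM in cKO-/-, 6.02 to 6.93 in cKO+/- and 1.43 to 3.47 in controls, so that these 17 libraries did not overlap between genotypes, while Sample_1160, at 5.29 CPM, lay below all cKO+/- libraries. Its step from control to cKO+/- was 1.34, and that from cKO+/- to cKO-/- 0.66 (SE 0.086, adjusted p = 0.00374). It overlaps *Snurf* on the same strand.

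Pyramidal cell genes of CA1, CA2 and CA3 were close to level, with a median of -0.026 over 29 and 1 called. That gene was *Wfs1*, which encodes the endoplasmic reticulum protein wolframin and marks CA1 pyramidal cells. It stood at 94.6, 96.2, 90.0, 117 and 89.7 CPM in cKO-/- and from 129 to 157 CPM in cKO+/- (log2 step -0.54, SE 0.076, adjusted p = 0.0058). Controls ran from 105 to 278 CPM, wider than either group, and with the controls in the fit the step was -0.56 with an adjusted p of 0.11. None of the 24 dentate granule cell genes passed; *Tdo2*, which degrades tryptophan and marks granule cells, had the smallest p and was 16.96 ± 2.96 CPM in cKO-/- and 10.1 ± 3.26 in cKO+/- (log2 step 0.79, adjusted p = 0.094). None of 28 adult neurogenesis genes passed either, with 10 higher and 2 lower at an unadjusted p under 0.05; *Eomes*, of intermediate progenitors, had a log2 step of 0.95 (adjusted p = 0.09).

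Among glutamate receptors and excitatory scaffolds 1 of 47 was called, *Grin3a*, a modulatory NMDA receptor subunit. It stood at 31.4, 36.2, 38.5, 42.0 and 30.5 CPM in cKO-/- against 40.7 to 62.8 CPM in cKO+/-, with 1 pair of libraries crossing over (log2 step -0.55, SE 0.106, adjusted p = 0.0415). None of 23 GABA-A receptor and inhibitory synapse genes and none of 22 calcium channel subunits passed. At an unadjusted p under 0.05, 5 were higher and 1 lower in the former, and 1 higher and 5 lower in the latter. Their smallest p belonged to *Gabra4* (log2 step 0.27, adjusted p = 0.17) and *Cacna1c* (-0.31, adjusted p = 0.17). Of 28 neuropeptide and interneuron genes none passed; 26 had a negative step, with a median of -0.19, and 9 were lower and 2 higher at an unadjusted p under 0.05. *Tac2*, encoding neurokinin B, was at 1.73 ± 0.366 CPM in cKO-/- and 4.98 ± 3.69 in cKO+/- (log2 step -1.57, adjusted p = 0.12). Of 30 immediate early genes none passed, 25 had a positive step and the median was 0.19; *Dusp6* had the smallest p (log2 step 0.32, adjusted p = 0.25).

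Of 29 genes of oligodendrocytes and myelin 23 had a positive step, with a median of 0.20 and 9 higher at an unadjusted p under 0.05, but the one called was lower. It was *Cspg4*, the NG2 proteoglycan of oligodendrocyte precursors and pericytes, which also belongs to the vascular list. It fell from 31.1 ± 2.47 to 23.5 ± 2.91 CPM (log2 step -0.41, adjusted p = 0.0444). The summed level of the myelin list ran from 5458 to 9721 CPM in cKO-/- and from 5044 to 7769 in cKO+/-, so the groups overlapped. Over 26 endothelial and mural genes the median was 0.19 and 21 were above 0. Neither 24 astrocyte genes (median 0.013, smallest p *Fabp7*, log2 step 0.55, adjusted p = 0.16) nor 24 microglial genes (median -0.062, smallest p *Siglech*, adjusted p = 0.26) held a called gene. Of 26 meningeal and matrix genes *Lama2*, a laminin chain, was higher (26.7 ± 2.69 against 17.5 ± 1.51 CPM, adjusted p = 0.00445, with Sample_1160 at 12.6 CPM) and *Tnxb* lower.

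None of 12 tested choroid plexus genes passed, although their median step was 2.12 and 4 were higher at an unadjusted p under 0.05. Their summed level ran from 230 to 8621 CPM in cKO-/- and from 223 to 1224 in cKO+/-. *Sostdc1* showed the spread, at 3.60, 13.1, 3.67, 4.13 and 38.0 CPM in cKO-/- and 2.31 to 6.48 in cKO+/- (adjusted p = 0.25). Neighbouring regions that a dissection could take along held no called gene: the medians were -0.12 over 22 neocortex genes (smallest p *Rprm*), -0.046 over 19 of thalamus and habenula (*Plekhg1*) and -0.13 over 12 of striatum (*Rarb*). Among 53 clustered protocadherins *Pcdhgb7* was called higher (15.6 ± 1.35 against 9.70 ± 1.61 CPM, adjusted p = 0.0194), but it shares its constant exons with the rest of its cluster, and Sample_1160 stood at 0.797 CPM. Of 78 ribosomal protein genes *Rps4l* was called (42.1 ± 4.62 against 28.7 ± 4.22 CPM, adjusted p = 0.0459). None of 75 oxidative phosphorylation genes passed (median 0.047, smallest p *Ndufa1*), and of 45 autism risk genes the one called was *Pogz*.

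**Figure D4:**
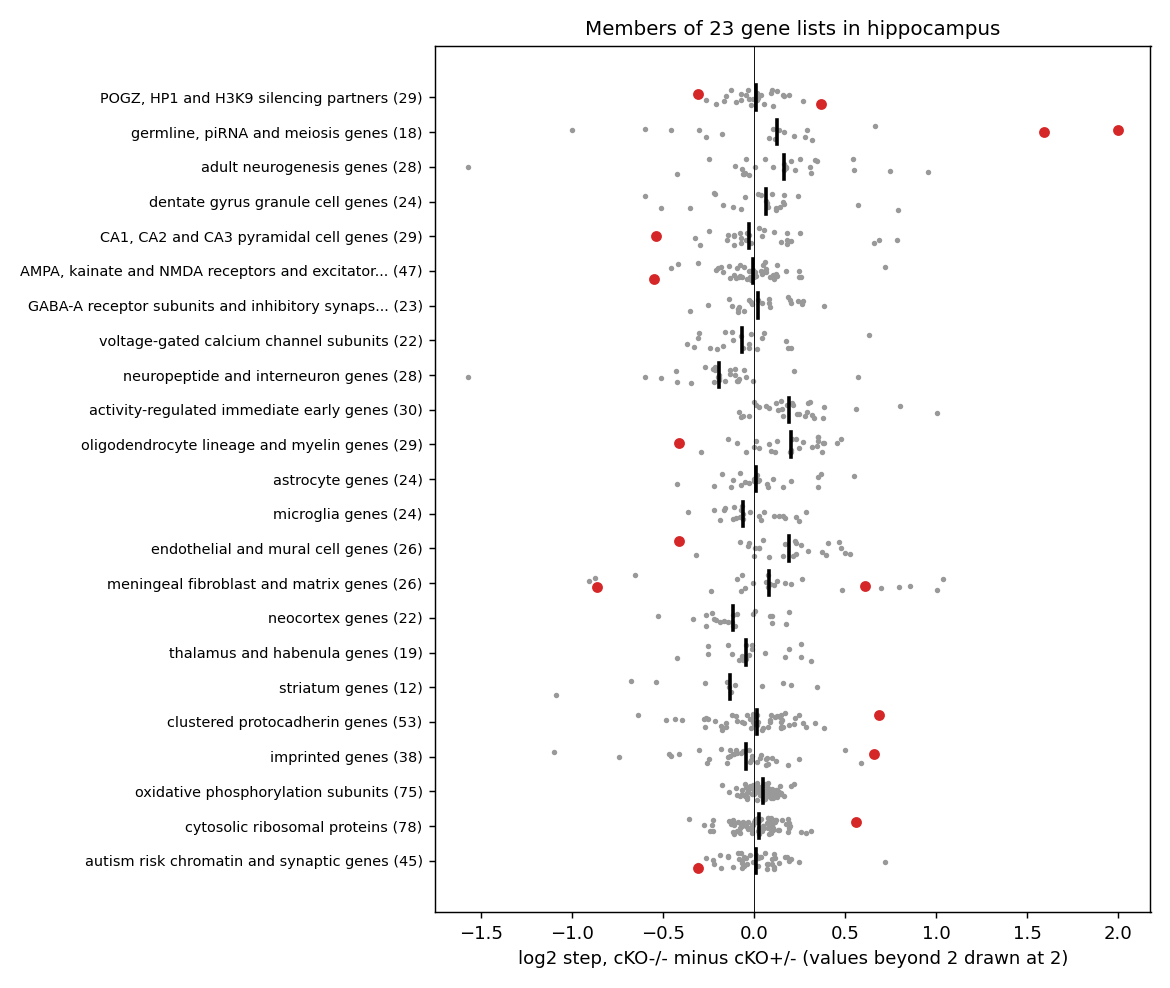
Log2 step from cKO+/- to cKO-/- for each tested member of 23 gene lists, with the number tested in brackets; bars are list medians and red points the members called at an adjusted p under 0.05. The list of choroid plexus genes, which includes *Ttr*, is left out because the *Ttr* level varied widely between dissections. Whether its other members follow *Ttr* was not tested. *Gm364* is drawn at 2.

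Genes near *Pogz* bear on the design. A cKO+/- mouse carries 1 floxed and 1 wild-type chromosome, a cKO-/- mouse 2 floxed ones, so any difference between the haplotypes cannot be told apart from the step in *Pogz* there. Within 1 Mb, 43 neighbours were tested and 2 were called (4.65%), both lower. They were *Scnm1*, a splicing factor 246 kb beyond *Pogz*, and *Mrpl9*, a mitochondrial ribosomal protein 389 kb before it, both named after their values were seen. *Scnm1* stood at 14.3 to 15.1 CPM in cKO-/- and 17.6 to 22.5 in cKO+/- (log2 step -0.41, adjusted p = 0.0147), with controls, which also carry 2 floxed alleles, at 13.3 to 19.97. *Mrpl9* stood at 29.2 to 31.4 and 34.96 to 39.6 CPM (log2 step -0.30, adjusted p = 0.0191), with controls at 28.7 to 38.6. Within 6 Mb, 3 of 153 were called (1.96%), *Thbs3* being the third.

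The same animals gave cerebellum, where the step was measured in 12 libraries, 6 of each genotype. In a joint fit of 13542 genes tested in both tissues, the step differed between the tissues for 4 genes (0.0295%), with 614 at an unadjusted p under 0.05. With the animal as a block, since each animal gave both tissues, none of the 4 passed. *Wfs1* was among them: the log2 step was -0.55 in hippocampus and 0.12 in cerebellum, a difference of -0.67 (SE 0.102, adjusted p = 0.023, and 0.18 with the block). In *Mamstr*, a cofactor of muscle transcription, the step was -0.01 in hippocampus and -1.16 in cerebellum. In *Lgr6*, a receptor for R-spondins, it was -0.39 and 1.204. In *Oxtr*, the oxytocin receptor, it was -0.61 and 1.41.

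Of the 77 genes called in hippocampus, 61 were tested in both tissues. In the joint fit 19 of these were also called in cerebellum, where 73 of 13542 were (0.539%). The 19 include *Gm364*, *Akr1c13* and *9430018G01Rik*, which averaged 0, 0.457 and 0.303 CPM in cKO+/- cerebellum. They passed the filter through cKO-/- in both tissues, so they had to be higher there and their calls are no support. They also enter the count of signs that follows. The fitted step had the same sign in both tissues for 52 of the 61, or 85.2%, against 62.9% of all 13542 genes; the tissues share their animals, and the rate is a description. *Gm364* stood at 21.7 ± 2.41 CPM (SD, n = 6) in cKO-/- cerebellum and at 0 in cKO+/-. *Dach2* had a log2 step of 2.44 in hippocampus and 1.78 in cerebellum, and *Dmp1* 0.86 and 1.17. *Ttn* rose in cerebellum from 2.70 ± 1.89 to 39.6 ± 22.5 CPM. *Sema3c* had a step of 0.67 in hippocampus and -0.12 in cerebellum, but the difference did not pass (adjusted p = 0.093). For the other 60 of the 61 genes the tissue difference did not pass.

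**Figure D5:**
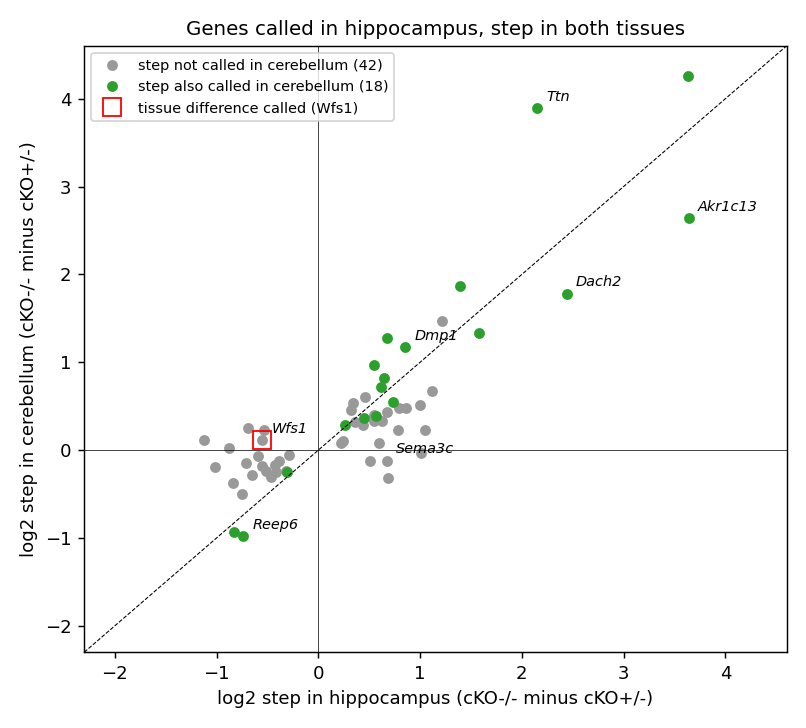
Log2 step from cKO+/- to cKO-/- in hippocampus (horizontal) and cerebellum (vertical) for 60 of the 61 genes called in hippocampus and tested in both tissues; *Gm364* is left out because its fold is a bound. Green points are the 18 also called in cerebellum, the dashed line marks equal steps, and *Wfs1* is boxed. *Akr1c13* and *9430018G01Rik*, among the green points, passed the filter through cKO-/- in both tissues and had to differ.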

How the data were processed

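Adult hippocampi were dissected, and poly(A) libraries were sequenced as 43 bp paired-end reads by the authors, who aligned and counted them per gene with STAR (v250a). The deposited values are raw counts; the use of strand and of reads that map to several genes is not given in the sources used here. The methods name mm9, while the deposited coordinates match GRCm38. Replicates are separate animals. The study's reporting summary says that 1 outlying RNA sample was left out, without naming it; Sample_1160 is left out of the main fits here.

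A gene entered the test if 5 or more of the 11 libraries exceeded 1 CPM. Genes were tested with the quasi-likelihood F-test (earlier form) of edgeR 4.0.16 (R 4.3.3), with TMM factors, sex and genotype, at a Benjamini-Hochberg adjusted p under 0.05. The step is cKO-/- minus cKO+/-. Levels use TMM factors over 18 hippocampal libraries. The tissue difference is an interaction term over 11 hippocampal and 12 cerebellar libraries. The animal numbers in the labels pair the tissues; the deviations of hippocampus and cerebellum of 1 animal correlated at a median of 0.172 (-0.142 to 0.368, 9 of 11 above 0.1), against -0.060 between animals. No pair of libraries within a group was a duplicate (chi-square per degree of freedom at least 6.72). The fits were tested on simulated counts. Alternatives were DESeq2 1.42.0, other size factors, filters, terms and libraries.

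Genes and lists were chosen with earlier results of these data known. Named were *Pogz*, *Dach2*, *Gm364* and *Akr1c13*; the 12 higher and 12 lower called genes of smallest p whose groups do not overlap; the called members of each list (at most 4) or else that of smallest p; and the called tissue differences. Promoters are from RefSeq. Depth of 17609321 to 41900988 counts leaves genes near 1 CPM resting on few counts.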

Additional observations from a re-analysis of the deposited data

Results flagged for a closer look

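In 49 named genes and 3 genotypes, 17 of 147 groups of hippocampal libraries (11.6%) held a library farther from the rest than Dixon's 95% limit, which chance passes in about 1 in 20. In cKO-/-, Sample_1371 was high in *4930447C04Rik* at 37.5 CPM (others up to 28.9). Sample_1385 was high in *Cnksr3* at 13.5 (up to 9.65), *Eomes* at 1.95 (up to 1.29) and *Sostdc1* at 38.0 (up to 13.1), and it held 4543 CPM of *Ttr*; the part of choroid plexus RNA in these values was not tested. Sample_936 was high in *Kcns1* at 9.58 (up to 7.43), *Lgr6* at 2.08 (up to 1.39) and *Rps4l* at 50.3 (up to 40.1), and Sample_1379 in *Wfs1* at 117 (up to 96.2).

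In cKO+/-, Sample_1120 was high in *Platr14* at 0.763 CPM (up to 0.468) and *Sec1* at 7.94 (up to 5.50), and low in *Atf7ip* at 49.7 (others from 61.7). Sample_1433 was low in *Rps4l* at 20.6 (from 28.7) and *Ndufa1* at 34.8 (from 40.6), and Sample_933 high in *Tac2* at 12.3 (up to 4.71). Among controls, Sample_1129 was high in *Cnksr3* at 11.5 CPM (up to 6.17), Sample_1155 in *Gabra4* at 150 (up to 120) and Sample_1172 in *Tac2* at 22.4 (up to 4.50). Sample_1129 also held 49.5 CPM of *Gabra6*, and the part of cerebellar RNA in its values was not tested.

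The step differed between hippocampus and cerebellum by -0.67 on the log2 scale in *Wfs1*, 1.15 in *Mamstr*, -1.60 in *Lgr6* and -2.02 in *Oxtr* (interaction term, adjusted p = 0.023 in each). With the animal as a replicate block the adjusted p was 0.18, 0.24, 0.25 and 0.26.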

How the results depend on the processing

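The main fit called 77 genes, 51 past 1.5-fold and 26 past 2-fold, 61.0% of them higher in cKO-/-. DESeq2 called 287, 108 past 1.5-fold, with 49.1% higher. Without a filter 83 passed 1.5-fold and 51 passed 2-fold, with more genes tested. A further fit held a term for the animals numbered outside the run that holds the controls. The animals outside were cKO-/- Sample_936, Sample_1371, Sample_1379 and Sample_1385 and cKO+/- Sample_933, Sample_938 and Sample_1433. Of the cKO-/- libraries in the main fit only Sample_1219 lay inside the run, so the term overlaps in part with genotype. Of the called genes other than *Pogz*, 38 kept their call and 38 lost it, and *Pogz* had an adjusted p of 0.0499. This term left 40 calls, 33 past 1.5-fold. With Sample_1160 there were 16, 16 past 1.5-fold and 13 past 2-fold, 81.25% higher, 139 genes with separated groups, a *Pogz* step of -0.34 (adjusted p = 0.13) and, for *Scnm1*, a step of 0.017 in the other direction. Without 1 library the calls ranged from 26 (cKO-/- Sample_1371) to 138 (cKO-/- Sample_936), from 20 to 67 past 1.5-fold, from 9 to 26 past 2-fold, and from 54.3% to 68.9% higher; 281 separated genes became 304 to 901, and the *Pogz* step ran from -0.34 to -0.29. *Pogz* lost its call without cKO-/- Sample_1371, Sample_1379 or Sample_1385 or cKO+/- Sample_1189. The calls also fell by over 1.5 times without cKO-/- Sample_1219 (34), Sample_1379 (30) or Sample_1385 (28) or cKO+/- Sample_1189 (45) or Sample_1433 (51). Leaving out a cKO-/- library drops the 7 genes above 1 CPM in cKO-/- alone. On the genes of the main fit, chosen after seeing the data, the calls were 37 to 185, with 30 to 84 past 1.5-fold and 19 to 32 past 2-fold. Also chosen after and on the genes of the main fit, leaving out the 3 libraries rich in *Ttr* left 9 calls, 9 past 1.5-fold and 7 past 2-fold, 88.9% higher, with a *Pogz* step of -0.33 (adjusted p = 0.26).

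Of the 76 called genes other than *Pogz*, 31 stayed called without each library in which they could be tested. Of these, 16 also stayed called in every other alternative in which they could be tested, and 9 of the 16 could be tested in every fit. The rest of the 16 were the 7 genes that passed the filter through the cKO-/- libraries alone. They had to differ wherever that filter applied, so their staying called is no support. The 4 called tissue differences became 0 with the animal as a replicate block and 17 with DESeq2, and 0 to 7 without 1 animal. The cause of these changes was not tested. Genes near 1 CPM rest on few counts, which limits what a decrease can show.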

Other observations

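A fit of 17 hippocampal libraries gave the step from control to cKO+/- and that from cKO+/- to cKO-/-. Its controls include Sample_1129, which held 49.5 CPM of *Gabra6*. In *Ttn* the first was -0.55 and the second 2.12, in *9430018G01Rik* 0.09 and 3.62, in *Cnksr3* -0.32 and 1.02, in *Sema3c* -0.09 and 0.68 and in *Slc5a5* -0.02 and -1.08. These genes were named for their step from cKO+/- to cKO-/- in the same libraries, so a larger second step is partly built into the choice. *9430018G01Rik* also passed the filter through the cKO-/- libraries alone, so its second step had to be large. In *Dach2* they were 2.20 and 2.46, and in *Snrpn* 1.34 and 0.67. The steps share the cKO+/- libraries. The difference of the 2 steps passed edgeR's test at an adjusted p under 0.05 in 0 of 14228 genes, with 1406 at an unadjusted p under 0.05; in *Ttn* it was 2.67 (SE 0.401, adjusted p = 0.052).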
